A study of Mus musculus with 43 samples.

Results

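The genes described here are 9 of the 52636 genes in the deposited tables, taken by name because they belong to transforming growth factor beta (TGF-β) signalling: the ligands Tgfb1, Tgfb2 and Tgfb3, the receptors Tgfbr1 and Tgfbr2, the feedback inhibitors Smad7 and Skil, the secreted target Tgfbi and the metalloprotease Bmp1. All 9 were found by symbol in both tables, which hold 24 organoid and 19 fibroblast libraries. Colonoids and tumoroids are organoids grown from adult mouse colon epithelium in Matrigel, each line from 1 mouse. Every organoid donor carried Vil-cre/ERT2, a tamoxifen-inducible Cre under the villin promoter and hence restricted to intestinal epithelium, and was injected with tamoxifen. Colonoids (lines M41, M40 and M1) were Apcwt/wt and tumoroids (lines F11, M3 and M14) Apcflox/flox, in which the recombined allele leaves the cells Apc deficient. Each line was treated for 6 days with the DMSO vehicle, 4 or 8 µM regorafenib (a multi-kinase inhibitor) or 1 µM 5-FU (a thymidylate synthase inhibitor), so every organoid group held 3 libraries. The tumoroid 5-FU libraries carry colonoid in their titles but Apcflox/flox as genotype, which decided their group. The fibroblasts were primary, unsorted cultures from wild-type C57B/6 colon, of 4 lines (M3, M3(2), M1(2) and M11, 1 mouse each). They were treated for 7 days with vehicle, 4 or 10 µM regorafenib, 1 µM autogramin-2 (an inhibitor of the cholesterol transfer protein Gramd1a, which is needed to form autophagosomes) or 4 µM regorafenib plus 1 µM autogramin-2. These fibroblast groups held 4 libraries each, apart from 10 µM regorafenib, which had none from line M11 and held 3.

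TGF-β ligands are secreted in a latent complex with their propeptide, are tethered to the matrix by latent TGF-β binding proteins and act only once integrins, proteases or thrombospondin have released them. The free ligand binds the type II receptor Tgfbr2, which recruits and activates the type I receptor Tgfbr1, and receptor-activated Smads then enter the nucleus with Smad4. In the colon the pathway restrains growth of the epithelium, and in fibroblasts it drives matrix production and the contractile myofibroblast state. Smad7, which blocks the type I receptor, and Skil, a repressor of Smad complexes, are both targets of the pathway that dampen it. Bmp1 processes procollagens and other matrix proteins and cleaves latent TGF-β binding proteins.

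Values are in CP20M, reads on a gene scaled to 20000000 reads on all genes, and the scale holds no division by gene length. Where levels of different genes are compared, they were divided by the exon length of the gene and are given per kb of exon. Differences are log2 fold changes of CP20M + 20, tested with limma over all genes that reached 200 CP20M in at least 2 libraries of the fit. A gene is called where its p-value adjusted over all genes tested and its log2 fold change pass the thresholds of the comparison. These were 0.01 and a 2-fold change between genotypes, 0.001 and a 1.5-fold change for regorafenib against vehicle in organoids, 0.05 with no fold minimum for the difference between genotypes in that response, and 0.05 and a 1.5-fold change elsewhere. Where a second fit, in which the line was a block so that each line was compared with itself, changed a call or moved a count by more than 1.5 times, its value stands beside the first.

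The libraries held 512592 to 22368441 reads on genes in organoids (median 15697936) and 7949957 to 12825919 in fibroblasts (median 9039204). One library stood apart, that of colonoid line M41 in 4 µM regorafenib. It was the shallowest, so that 1 read was worth 39.0 CP20M there and a gene with no read may have been as high as 117 CP20M, the level of 3 reads. Defining markers fitted the labelled cell types. The 7 epithelial markers (such as Epcam, Krt8 and Cdx2) summed to 65882 to 174103 CP20M in organoid libraries and to 33 to 309 in fibroblast libraries. The 8 fibroblast markers (such as Pdgfra, Col1a1 and Dcn) summed to 110998 to 186156 CP20M in fibroblast and to 12 to 123 in organoid libraries. Fibroblast cultures also held smooth muscle and myofibroblast markers (5 genes, 36777 to 135638 CP20M), macrophage markers (8 genes, 449 to 6031) and endothelial markers (4 genes, 823 to 25317). In such bulk samples, fewer cells of a type and less RNA per cell cannot be told apart.

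In the GRCm38 build (GENCODE M21 annotation) the ligand genes lie apart. Tgfb1 (ENSMUSG00000002603) is at chr7:25687002-25705077 on the plus strand, Tgfb2 (ENSMUSG00000039239) at chr1:186622792-186705989 on the minus strand and Tgfb3 (ENSMUSG00000021253) at chr12:86056745-86079041 on the minus strand. The receptors are Tgfbr1 (ENSMUSG00000007613) at chr4:47353222-47414931, plus strand, and Tgfbr2 (ENSMUSG00000032440) at chr9:116084293-116175360, minus strand. The inhibitors are Smad7 (ENSMUSG00000025880) and Skil (ENSMUSG00000027660), the latter at chr3:31095058-31122577 on the plus strand. Tgfbi (ENSMUSG00000035493) is at chr13:56609523-56639562 on the plus strand and Bmp1 (ENSMUSG00000022098) at chr14:70474558-70520234 on the minus strand. The values are read counts over the exons of each gene.

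The sequences just upstream of Tgfb1 and Tgfb2 are shown because these ligands took different courses under regorafenib in the fibroblasts. Each is the 250 bases before the gene's RefSeq start (GRCm38.p6), given 5′ to 3′ on the gene's own strand, chr7:25686752-25687001 (plus) for Tgfb1 and chr1:186705990-186706239 (minus) for Tgfb2. Capitals mark matches to CAGAC (or GTCTG on the other strand), a core Smad binding motif, to its palindrome GTCTAGAC, to the E-box CACGTG or to TATAAA (or TTTATA).
Tgfb1: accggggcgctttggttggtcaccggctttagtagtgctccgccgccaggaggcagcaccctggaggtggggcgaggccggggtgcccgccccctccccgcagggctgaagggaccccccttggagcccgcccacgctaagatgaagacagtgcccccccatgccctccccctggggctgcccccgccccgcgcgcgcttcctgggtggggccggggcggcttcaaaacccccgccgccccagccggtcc
Tgfb2: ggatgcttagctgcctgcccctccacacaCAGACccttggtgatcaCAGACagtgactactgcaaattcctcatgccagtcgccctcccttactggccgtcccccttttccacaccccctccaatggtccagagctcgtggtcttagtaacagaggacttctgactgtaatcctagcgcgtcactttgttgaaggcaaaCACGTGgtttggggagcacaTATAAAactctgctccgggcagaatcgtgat

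The Tgfb2 window held CAGAC at 221 and at 204 bases before the start, CACGTG at 51 and TATAAA at 31, and 53.6% of its bases were G or C. The Tgfb1 window held none of the 4 motifs, and its G and C content was 75.2%. CAGAC or GTCTG also occurred in the windows of Tgfbi (2 matches), Tgfbr2 (1) and the second start of Tgfbr1 (1). Among all 32851 RefSeq windows of this length, 42.2% held CAGAC or GTCTG, 0.167% GTCTAGAC, 6.02% CACGTG and 12.4% TATAAA or TTTATA, and the median G and C content was 52.4%. A match here describes letters only. Windows were found for 5 of the 9 genes, and those of Tgfb3, Smad7, Skil and Bmp1 were not used here.

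In the vehicle, organoids were rich in the type II receptor and poor in ligand. Tgfbr2 was the highest of the 9 genes per length in colonoids, with 953 ± 87.2 CP20M per kb of exon (SD, n = 3), and in tumoroids, with 1468 ± 654 (SD, n = 3). The inhibitors followed in colonoids, Skil with 294 ± 52.1 and Smad7 with 233.1 ± 15.14 CP20M per kb, 2 ranges that overlapped. Next in order came Tgfbr1 (148 ± 30.9 CP20M per kb) and Tgfb1 (94.08 ± 18.15), each apart from its neighbours. Bmp1 (21.4 ± 3.67), Tgfb3 (13.6 ± 18.7), Tgfb2 (2.53 ± 1.51) and Tgfbi (1.06 ± 1.40 CP20M per kb) closed the order and overlapped from one to the next. Tumoroids had nearly the same order, with Tgfb3 (59.7 ± 28.2 CP20M per kb) beside Tgfb1 (78.1 ± 26.2) and above Bmp1 (27.8 ± 9.51), and all neighbours from Skil to Tgfbr1 and from Tgfb1 to Bmp1 overlapped.

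Fibroblasts in vehicle had another order. Bmp1 (806 ± 136 CP20M per kb of exon, SD, n = 4) and Tgfb3 (686 ± 240) stood at its top, followed by Tgfbr2 (565 ± 46.9), Smad7 (469 ± 130), Tgfb1 (274 ± 64.0), Tgfb2 (201 ± 47.6), Skil (183 ± 46.4), Tgfbr1 (168 ± 16.8) and Tgfbi (89.6 ± 129). Every neighbour in this order overlapped with the next. Both tables were scaled to the same total but made separately, so levels in organoids and fibroblasts are set side by side with no test. On that footing the 3 ligands, Smad7, Bmp1 and Tgfbi were lower in all 6 vehicle-treated organoid libraries than in all 4 fibroblast libraries, Tgfbr2 was higher, and Tgfbr1 and Skil overlapped, as the plot of levels per kb shows.

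**Figure D1:**
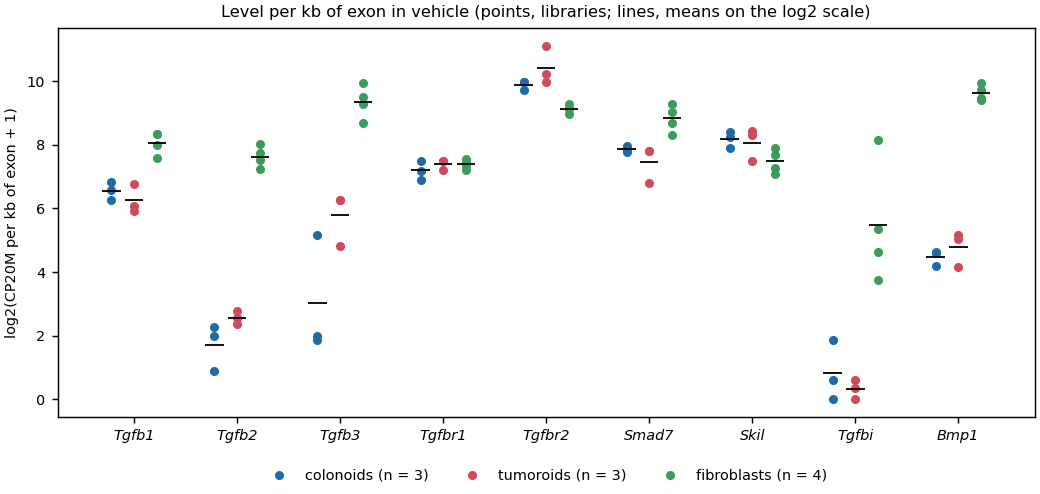
Levels of the 9 genes in vehicle, as log2 of CP20M per kb of exon + 1, for 3 colonoid, 3 tumoroid and 4 fibroblast libraries (points) with their means (lines). Tgfbr2 is the highest gene in organoids, Bmp1 and Tgfb3 lead in fibroblasts, and 1 fibroblast library lies far above the others in Tgfbi.

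Loss of Apc was compared in vehicle first. None of the 8 genes tested was called between tumoroids and colonoids, where 0.141% of all 11320 genes were. One of the 8 (Tgfb3) had an unadjusted p under 0.05, and edgeR also called none. Tgfb3 read 10, 9 and 119 CP20M in colonoid lines M41, M40 and M1 against 257, 257 and 92 in tumoroid lines F11, M3 and M14. The high colonoid line M1 thus overlapped with the low tumoroid line M14 (log2 fold change 2.05, SE 0.90, limma adjusted p = 0.294). Tgfbr2 was 8225, 6975 and 8196 CP20M in the colonoid lines and 8187, 18133 and 9734 in the tumoroid lines, where line M3 alone was high (log2 fold change 0.54, SE 0.32, limma adjusted p = 0.469). The median log2 fold change was 0.25 over the 8 genes and 0.05 over all genes tested. Of 59 other genes of the pathway, 38 were tested and none was called.

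Regorafenib was then compared with vehicle over both genotypes and both doses. Among the 8 genes tested, Bmp1 rose, the other 7 did not pass, and no gene fell. The background was 4.97% of 11320 genes called. The median log2 fold change was 0.48 over the 8 genes against −0.10 over all genes. It counts Tgfb2 (1.096), which passed the filter only through treated libraries, so no shift of the set is read from it. Bmp1 was low in vehicle, with 204, 152 and 212 CP20M in colonoid lines M41, M40 and M1 and 150, 282 and 307 in tumoroid lines F11, M3 and M14. At 4 µM it read 1366, 874 and 1181 CP20M in those colonoid lines and 812, 747 and 1680 in those tumoroid lines. At 8 µM the values were 3563, 2168 and 1130 CP20M in colonoids and 615, 1036 and 1822 in tumoroids. All 12 regorafenib libraries thus lay above all 6 vehicle libraries, and the increase was 5.52-fold (log2 fold change 2.46, SE 0.27, limma adjusted p = 2.16e-05). The protease is known in fibroblasts for maturing fibrillar procollagen, and its level in these epithelial cultures stayed under that of every fibroblast library, the lowest of which read 4686 CP20M.

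**Figure D2:**
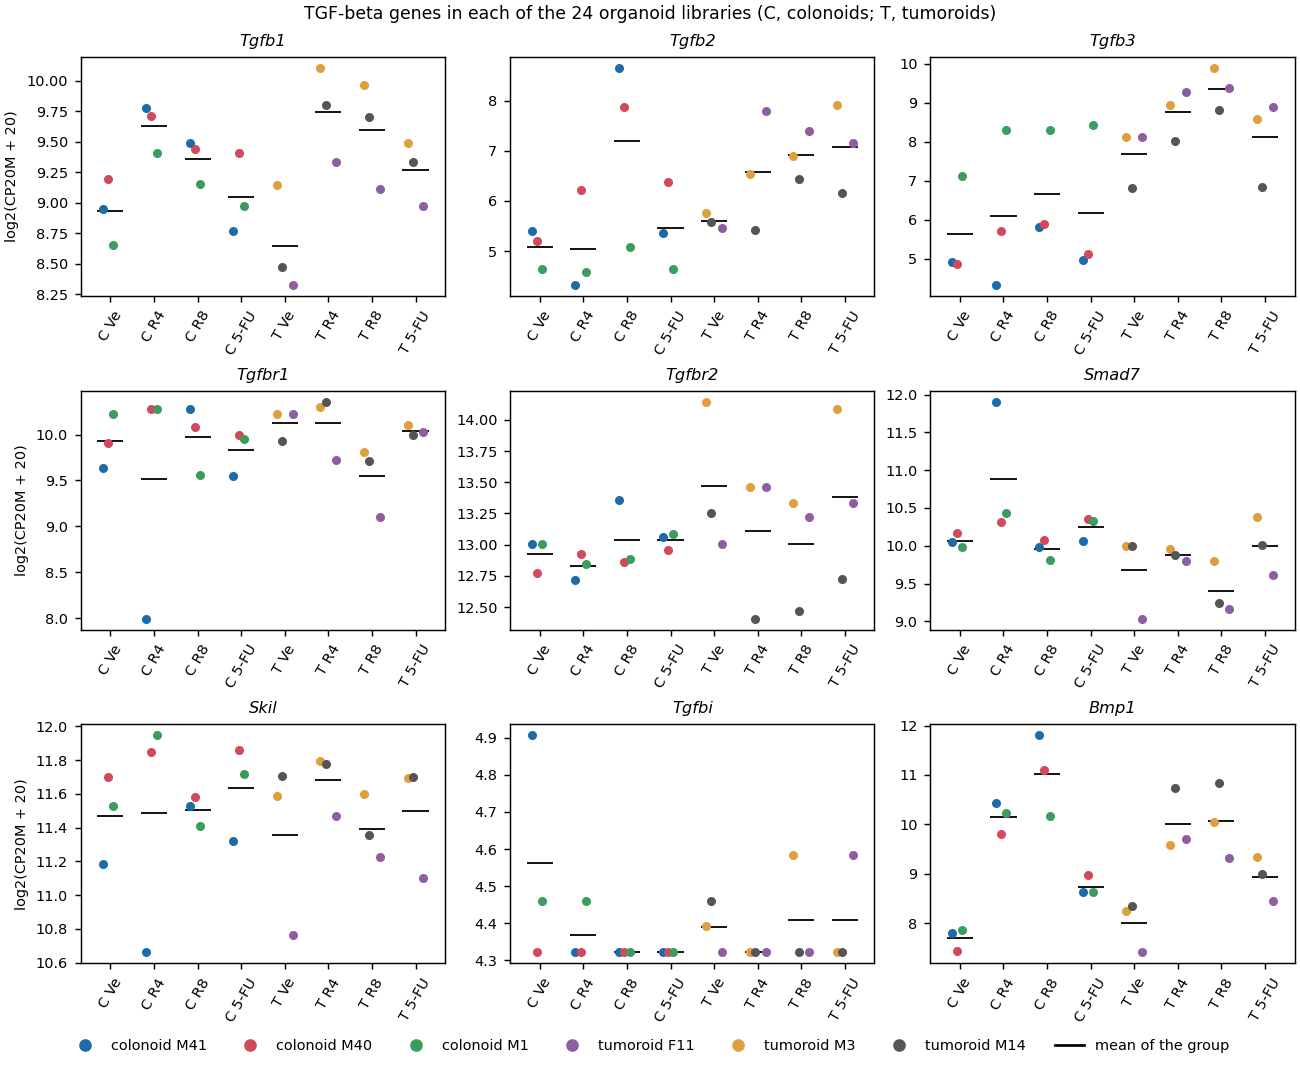
Values of the 9 genes in each of the 24 organoid libraries, as log2(CP20M + 20), by group (C, colonoids, T, tumoroids, Ve, vehicle, R4 and R8, 4 and 8 µM regorafenib, and 5-FU at 1 µM), with colours for lines and bars for group means. Bmp1 lies higher in every regorafenib library than in any vehicle library, Tgfb1 is higher under regorafenib within every line, and Tgfbi stays at 0 to 10 CP20M.

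Of the ligands, Tgfb1, the main form made by epithelial and immune cells, was higher under regorafenib in each of the 6 lines. In vehicle it was 474, 566 and 383 CP20M in colonoid lines M41, M40 and M1 and 301, 545 and 335 in tumoroid lines F11, M3 and M14. At 4 µM regorafenib it was 859, 816 and 658 in those colonoid lines and 626, 1081 and 870 in those tumoroid lines, and at 8 µM 697, 676 and 549 and then 533, 982 and 813. Vehicle values alone spanned 301 to 566 CP20M, and the vehicle and regorafenib libraries overlapped. Without the line in the fit Tgfb1 missed the threshold (log2 fold change 0.79, SE 0.16, limma adjusted p = 0.00254). Once lines were blocked it passed at the same fold change (SE 0.09, limma adjusted p = 9.13e-05), which made 2 of 8 genes called against 6.67% of all genes in that fit. The value was 1.73-fold over vehicle.

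Tgfb2, the ligand whose transcript was nearly absent in vehicle (5 to 34 CP20M), reached 200 CP20M in 3 regorafenib libraries only: colonoid lines M41 and M40 at 8 µM (383 and 215 CP20M) and tumoroid line F11 at 4 µM (201). The other regorafenib libraries read 0 to 149 CP20M, the 0 being the shallowest library, where no read allows up to 117. It entered the test only through those 3 libraries, all of them treated, so its test decides nothing. Its log2 fold change of 1.096 (SE 0.50), not called, is given as a size only and ran from 0.85 to 2.17 over the alternative settings. Tgfb3 kept the split between lines seen in vehicle. In colonoid line M1 it was 119 CP20M in vehicle and 293 at each dose, while line M40 read 32 and 39 and line M41 read 36 at 8 µM. The shallow library of line M41 at 4 µM held no read of Tgfb3 and sets no limit under 117 CP20M. In tumoroids it was 257, 257 and 92 CP20M in vehicle, 598, 474 and 239 at 4 µM and 639, 927 and 431 at 8 µM for lines F11, M3 and M14. Every tumoroid line was higher at either dose than in vehicle, but over all 6 lines the comparison did not pass (log2 fold change 1.06, SE 0.55, limma adjusted p = 0.170). Once lines were blocked and without the shallowest library, a setting chosen after seeing the data, Tgfb3 did pass (1.19, limma adjusted p = 3.45e-05).

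The receptors and the inhibitors gave no call in organoids under regorafenib. Tgfbr1 spanned 235 to 1294 CP20M in the 12 regorafenib libraries and 777 to 1180 in the 6 vehicle libraries (log2 fold change −0.23, SE 0.28, limma adjusted p = 0.573). Its lowest value came from the shallowest library. Tgfbr2 spanned 5410 to 11263 CP20M under regorafenib and 6975 to 18133 in vehicle (−0.20, SE 0.20, limma adjusted p = 0.480). For Smad7 the 95% interval of the log2 fold change ran from −0.29 to 0.61 around 0.16 (SE 0.21, limma adjusted p = 0.621), and for Skil from −0.29 to 0.50 around 0.10 (SE 0.18, limma adjusted p = 0.713). Without the shallowest library the log2 fold changes of Tgfbr1, Smad7 and Skil were −0.04, 0.03 and 0.21, none of them called. Smad7 was highest at 3824 CP20M in the shallowest library, a value resting on 98 reads, whereas the other 23 organoid libraries read 505 to 1362. Tgfbi, a secreted adhesion protein named for its induction by the pathway, was at 0 to 10 CP20M in all 24 organoid libraries and was not tested.

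Within each genotype the same gene led. In colonoids Bmp1 was the 1 gene of 8 called, 7.43-fold up (log2 fold change 2.89, SE 0.38, limma adjusted p = 3.04e-04), against 1.46% of all genes. It was again 1 of 8 once lines were blocked, against 2.37%. Deposited scaling and TMM differed here in how all calls split, with 87 genes higher and 78 lower in the first and 143 and 76 in the second, and TMM moved the median of all genes from −0.14 to −0.04. The Bmp1 call in colonoids did not hold when any of lines M41, M40 or M1, or tumoroid line M3, was left out of the shared fit (limma adjusted p = 0.00323, 0.00876, 0.00308 and 0.00182, threshold 0.001), while its log2 fold change stayed between 2.68 and 3.17. In tumoroids none of the 8 was called, against 0.203% of all genes. Bmp1 (4.10-fold, log2 fold change 2.04, SE 0.38, limma adjusted p = 0.00560) and Tgfb1 (2.03-fold, 1.02, SE 0.23, limma adjusted p = 0.0162) were the 2 with an unadjusted p under 0.05, and edgeR called none. The 3 tumoroid lines were higher for both genes at either dose. Once lines were blocked Tgfb1 was called in tumoroids (limma adjusted p = 6.72e-04, 1 of 8 genes against 0.839% of all genes). For Tgfb2 the log2 fold change was 1.04 (SE 0.70) in colonoids and 1.15 (SE 0.70) in tumoroids, and for Tgfb3 0.75 (SE 0.78) and 1.37 (SE 0.78). These values depend on the settings. Over the alternatives, leaving out a line among them, Tgfb2 ran from 0.64 to 2.49 in colonoids and from 0.66 to 1.85 in tumoroids. Tgfb3 ran from 0.55 to 1.47 in colonoids and from 1.25 to 1.47 in tumoroids.

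Whether the genotypes differed in their response was tested directly. None of the 8 genes passed and none had an unadjusted p under 0.05, in a test where 0.00883% of genes were called, and edgeR called no gene at all. The Bmp1 response in tumoroids minus that in colonoids was −0.86 on the log2 scale, with a 95% interval from −2.004 to 0.29 (limma adjusted p = 1.00). For Tgfb1 the difference was 0.46, with an interval from −0.24 to 1.16 (limma adjusted p = 1.00). These intervals are wide, and the lines of either genotype covered much of the other's range. Once lines were blocked the intervals narrowed, to −1.69 to −0.02 for Bmp1 and 0.07 to 0.85 for Tgfb1. Neither difference passed there (limma adjusted p = 0.922 and 0.828).

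Between 8 and 4 µM none of the 8 genes was called, where 0.451% of all genes were, nor once lines were blocked, where 1.78% were, and edgeR called none of them either. All calls here split into 21 higher and 30 lower with the deposited scaling and into 29 and 67 with TMM. Smad7 was lower at the higher dose in 6 of 6 lines (log2 fold change −0.70, SE 0.25, limma adjusted p = 0.203), a value that was −0.45 without the shallowest library. Apart from Tgfb2, Smad7 alone had an unadjusted p under 0.05. Tgfb2 was higher in 5 of 6 lines, and its log2 fold change of 1.25 (SE 0.57) is given as a size only. It passed the filter only through colonoid lines M41 and M40 at 8 µM (383 and 215 CP20M) and tumoroid line F11 at 4 µM (201). Its test rests mainly on libraries of the group where it was higher, and decides nothing.

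The antimetabolite 5-FU was tested with all 24 organoid libraries in the fit. None of the 8 genes tested was called, against 2.35% of 11562 genes, 1 had an unadjusted p under 0.05 (Bmp1), and edgeR called none. Bmp1 read 377, 480 and 374 CP20M in colonoid lines M41, M40 and M1 and 330, 630 and 492 in tumoroid lines F11, M3 and M14, so that all 6 libraries lay above all 6 vehicle libraries. It was 1.98-fold higher than in vehicle (log2 fold change 0.99, SE 0.29, limma adjusted p = 0.0723), and it passed once lines were blocked (limma adjusted p = 0.0130), where 5.05% of all genes were called. Without the shallowest library, which is in neither group, it also passed (limma adjusted p = 0.0395). Tgfb1 was higher in 5 of 6 lines (0.37, SE 0.19, limma adjusted p = 0.344). Tgfb2 read 123 and 221 CP20M in tumoroid lines F11 and M3 and 5 to 63 in the other 4 lines. It passed the filter only through treated libraries, so its test decides nothing and its log2 fold change of 0.93 (SE 0.56) is a size only. Over the alternative settings its log2 fold change ran from 0.73 to 1.66. The organoid comparisons with 5-FU and with regorafenib share their vehicle libraries, so the Bmp1 values are set side by side only.

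In fibroblasts all 9 genes were tested, and Tgfb2 led at each dose of regorafenib. At 4 µM it was the 1 gene of 9 called, against 1.02% of 11032 genes, with a median log2 fold change of 0.26 over the 9 genes and −0.00 over all. In vehicle it read 1055, 864, 1234 and 1512 CP20M in lines M3, M3(2), M1(2) and M11. At 4 µM it read 3398, 2673, 3295 and 3974 in the same lines, and at 10 µM 5316, 4259 and 5239 in the 3 lines that had this dose. The 3 groups did not overlap, and each line was higher at each higher dose. The increase at 4 µM was 2.86-fold (log2 fold change 1.52, SE 0.23, limma adjusted p = 0.00182) and at 10 µM 4.24-fold (2.09, SE 0.25, limma adjusted p = 6.29e-05). Line M11 has no 10 µM library, and once lines were blocked the 10 µM change was 2.21 (SE 0.10, limma adjusted p = 1.60e-10). The call at 4 µM was lost without line M3 (limma adjusted p = 0.0954) or line M1(2) (0.0769), where the log2 fold change was 1.46 and 1.55.

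**Figure D3:**
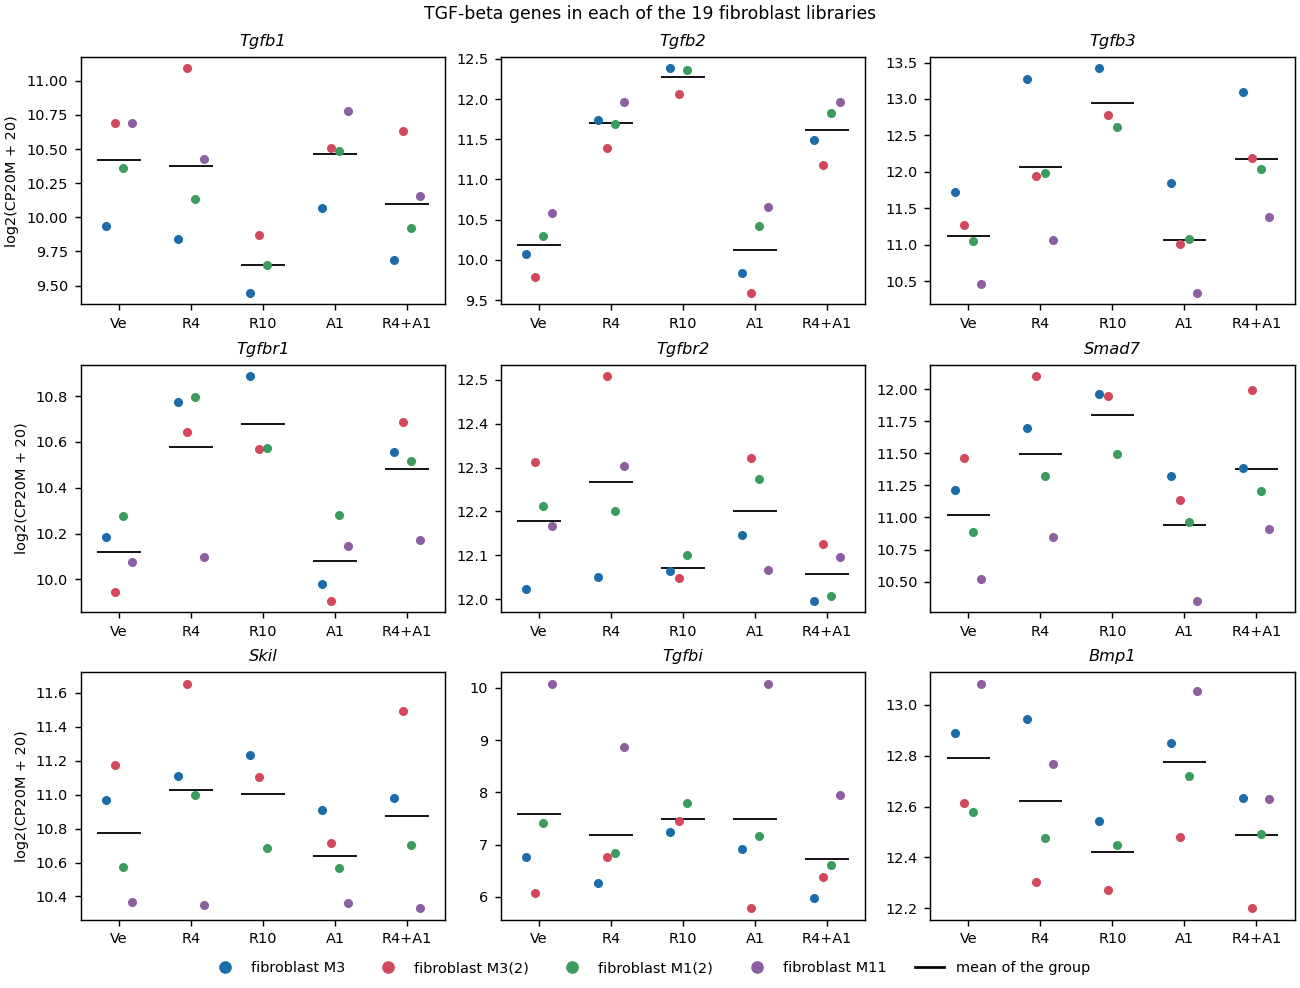
Values of the 9 genes in each of the 19 fibroblast libraries, as log2(CP20M + 20), by group (Ve, vehicle, R4 and R10, 4 and 10 µM regorafenib, A1, 1 µM autogramin-2, R4+A1, 4 µM regorafenib plus autogramin-2), with colours for lines and bars for group means. Tgfb2 separates all libraries with regorafenib from those without it, Tgfb3 is higher with regorafenib within every line over wide gaps between lines, and Tgfbi is high in line M11.

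Tgfb3 moved the same way but varied more between lines. It read 3352, 2439, 2103 and 1394 CP20M in vehicle and 9851, 3908, 4021 and 2126 at 4 µM in lines M3, M3(2), M1(2) and M11. At 10 µM it read 10942, 7030 and 6241 CP20M in the first 3 lines. All 4 lines were higher at 4 µM, but line M11 stayed under the vehicle level of lines M3 and M3(2), and the comparison without the line did not pass (1.92-fold, log2 fold change 0.94, SE 0.44, limma adjusted p = 0.364). Once lines were blocked it passed (SE 0.11, limma adjusted p = 1.06e-05), making 2 of 9 genes against 7.22% of all genes. At 10 µM the groups did not overlap and Tgfb3 was called, 3.51-fold up (1.81, SE 0.48, limma adjusted p = 0.0176). That call was lost without line M3(2) (limma adjusted p = 0.147) or M1(2) (0.133). Line M11, the lowest in vehicle, has no 10 µM library, so this fold compares unlike sets of lines. Once lines were blocked the log2 fold change at 10 µM was smaller, at 1.55 (SE 0.12, limma adjusted p = 4.40e-08). Tgfb3 overlaps the exons of 2 unnamed transcripts on the opposite strand, AC134328.1 over 257 bases and Gm37804 over 163, of its 3383 exonic bases, and Tgfb2 overlaps those of Gm29491 over 124 of 5791. The strand setting of the counting is not stated, and without strand the reads of such partners cannot be told apart.

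Tgfb1, in contrast to the other ligands, was not higher. Its values in vehicle were 961, 1632, 1293 and 1637 CP20M in lines M3, M3(2), M1(2) and M11, and at 4 µM 896, 2162, 1106 and 1357 (log2 fold change −0.05, SE 0.26, limma adjusted p = 0.966). The estimate changed sign, to 0.01 and 0.03, when line M1(2) or M11 was left out. At 10 µM the 3 values of 677, 916 and 782 CP20M lay under every vehicle value (−0.77, SE 0.28, limma adjusted p = 0.0759), and once lines were blocked Tgfb1 was called lower (−0.71, SE 0.14, limma adjusted p = 5.36e-04). The highest Tgfb1 value, that of line M3(2) at 4 µM, came with the highest sum of the 4 endothelial markers, 25317 CP20M of which Cdh5 made 8922, against 8838 in the vehicle library of that line. In lines M3, M1(2) and M11 the endothelial sum was 977, 1736 and 2505 CP20M in vehicle and 1503, 6065 and 7655 at 4 µM, so it was higher at 4 µM in all 4 lines, whereas Tgfb1 was lower in these 3. None of the 4 markers was at 0 in any fibroblast library. Their part in the values of Tgfb1, Tgfb2 and Tgfb3 at 4 µM was not tested.

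At 10 µM regorafenib 2 of 9 genes were called, Tgfb2 and Tgfb3, against 7.33% of 11032 genes, with a median log2 fold change of 0.23 over the 9 genes and −0.04 over all. Once lines were blocked 4 of 9 were called, Tgfb2, Tgfb3 and Smad7 higher and Tgfb1 lower, against 13.8% of all genes. Smad7 read 2355, 2801, 1875 and 1447 CP20M in vehicle, 3297, 4381, 2545 and 1821 at 4 µM and 3979, 3919 and 2872 at 10 µM. Every line was higher at either dose than in vehicle, and the 10 µM values lay above all vehicle values. Its log2 fold change was 0.47 at 4 µM (SE 0.29, limma adjusted p = 0.513) and 0.78 at 10 µM (SE 0.31, limma adjusted p = 0.110), and 0.60 with the block at 10 µM (limma adjusted p = 2.89e-04). With the block the 4 µM change of Smad7 passed on its p-value (limma adjusted p = 0.00220) but not on the fold minimum. Tgfbr1, the type I receptor, was 1143, 967, 1222 and 1060 CP20M in vehicle, 1731, 1578, 1758 and 1077 at 4 µM and 1875, 1501 and 1504 at 10 µM. Line M11 hardly moved, and the other lines at either dose lay above every vehicle library. Without the block, the Tgfbr1 change passed on its p-value at 10 µM but fell short of the fold minimum (0.56, SE 0.16, limma adjusted p = 0.0292). At 4 µM it passed on neither (0.46, SE 0.15, limma adjusted p = 0.164). Once lines were blocked it passed on its p-value alone at 4 µM (0.46, limma adjusted p = 0.0115) and at 10 µM (0.49, limma adjusted p = 0.00658). TMM scaling and edgeR each called it at 10 µM (0.59 and 0.60).

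The remaining genes of the set were not called in fibroblasts at either dose. Tgfbr2 spanned 4141 to 5067 CP20M in vehicle, 4218 to 5809 at 4 µM and 4217 to 4373 at 10 µM (log2 fold changes 0.09, SE 0.09, and −0.11, SE 0.10, limma adjusted p = 0.751 and 0.536). Skil gave 0.26 (SE 0.27, limma adjusted p = 0.754) and 0.23 (SE 0.29, limma adjusted p = 0.670). Bmp1, which rose in organoids, spanned 6095 to 8662 CP20M in vehicle, 5030 to 7865 at 4 µM and 4921 to 5948 at 10 µM. Its log2 fold change was −0.17 (SE 0.16, limma adjusted p = 0.707) and −0.37 (SE 0.17, limma adjusted p = 0.168), and the 10 µM values lay under all vehicle values. Once lines were blocked the Bmp1 change at 10 µM was −0.30 (limma adjusted p = 0.00413), short of the fold minimum. Tgfbi was 1065 CP20M in line M11 in vehicle and 89, 47 and 151 in lines M3, M3(2) and M1(2), a gap that made its error the largest of the 9 (−0.40, SE 0.89, limma adjusted p = 0.908 at 4 µM, and −0.09, SE 0.96, limma adjusted p = 0.963 at 10 µM). Since M11 has no 10 µM library, the second value compares unlike sets of lines, and once lines were blocked it was 0.58 (limma adjusted p = 0.200), all 3 lines being higher at 10 µM. Beside Tgfbi, the 8 macrophage markers summed to 6031 CP20M in the vehicle library of M11, with Lyz2 the most abundant at 4214 and none at 0, and to 1064 to 2497 in those of the other lines. Their part in the Tgfbi values was not tested.

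**Figure D4:**
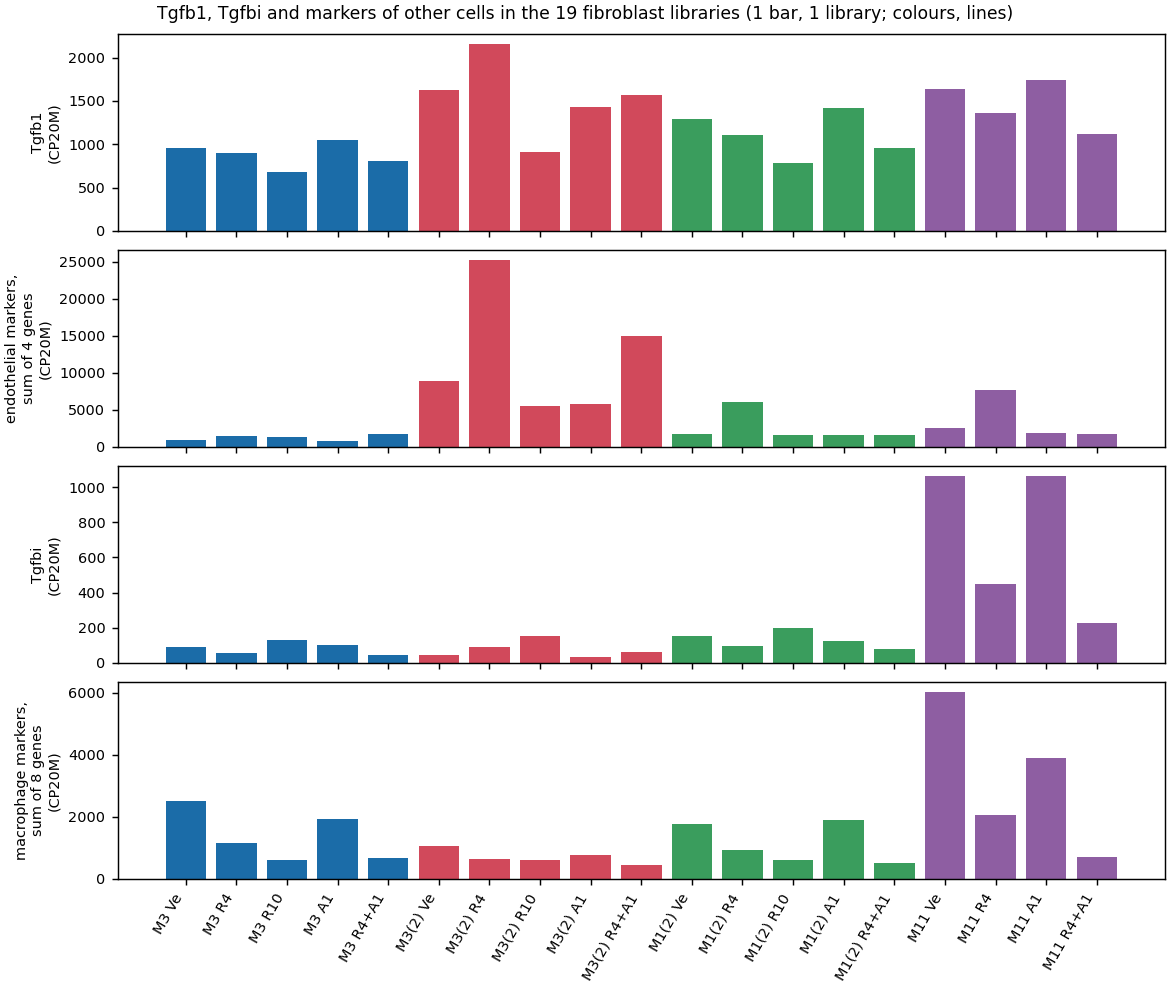
Tgfb1, summed endothelial markers, Tgfbi and summed macrophage markers in the 19 fibroblast libraries, in CP20M, with 1 bar per library and colours for lines. The tallest Tgfb1 bar (2162, line M3(2) at 4 µM regorafenib) stands over the tallest endothelial bar (25317), and the Tgfbi bars of line M11 (1065 in vehicle and in autogramin-2) over its tall macrophage bars.

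Markers of contractile cells, fibroblasts and macrophages were read in the same comparisons, in the fit without the line as a block. Their values with the block are not given. At 10 µM, where line M11 has no library, their fold changes compare unlike sets of lines. In the 3 lines with both, the 5 smooth muscle and myofibroblast markers summed to 62396 to 84569 CP20M in vehicle and 105998 to 125171 at 10 µM, with Acta2 the most abundant in each library. Myh11, a smooth muscle myosin, rose at 4 µM (log2 fold change 1.86, SE 0.34, limma adjusted p = 0.00854) and at 10 µM (1.87, SE 0.36, limma adjusted p = 0.00298), whereas Acta2 did not pass (0.54 and 0.94, limma adjusted p = 0.484 and 0.0726). Myh11 was thus the 1 called of 4 tested at each dose, where 1.02% of all genes were called at 4 µM and 7.33% at 10 µM. Tagln and Cnn1 were not called, and Des was not tested. The fibroblast marker Pdgfra, a growth factor receptor, fell (−2.51, SE 0.61, limma adjusted p = 0.0459, at 4 µM and −3.03, SE 0.66, limma adjusted p = 0.00550, at 10 µM), and Col3a1, a fibrillar collagen, fell at 10 µM (−1.43, SE 0.37, limma adjusted p = 0.0150). The other 6 of the 8 fibroblast markers were not called at 10 µM, among them Col1a1, the most abundant, which was higher in 3 of 3 lines (0.15, SE 0.18, limma adjusted p = 0.661). The list summed to 128577 to 150482 CP20M in vehicle and 129367 to 136896 at 10 µM in those lines. Of the 3 macrophage markers tested at 10 µM, Lyz2 fell (−2.60, SE 0.60, limma adjusted p = 0.00806) and Csf1r and C1qb were not called. The part of such shifts in the values of the ligands was not tested.

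From 4 to 10 µM none of the 9 genes was called, where 0.145% of all genes were. Tgfb1 and Tgfb2 had an unadjusted p under 0.05, and edgeR called neither. Tgfb1 was lower in 3 of 3 lines (log2 fold change −0.72, SE 0.28, limma adjusted p = 0.295). Tgfb2 and Tgfb3 were higher in 3 of 3 (0.57, SE 0.25, limma adjusted p = 0.371, and 0.87, SE 0.48, limma adjusted p = 0.496). Once lines were blocked these 3 ligands were all called (−0.66, 0.70 and 0.61, limma adjusted p = 0.00453, 4.35e-04 and 0.00317), in a fit that called 6.02% of all genes.

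Autogramin-2 alone called none of the 9 genes and 0% of all genes with limma. None of the 9 had an unadjusted p under 0.05, which 120 of all 11032 genes had, and edgeR called no gene. Log2 fold changes of the 9 lay between −0.13 and 0.04. Tgfb2 read 896, 749, 1350 and 1600 CP20M in lines M3, M3(2), M1(2) and M11, and Tgfb3 3676, 2031, 2139 and 1271, each higher than vehicle in 2 of 4 lines and lower in the other two. The combination of 4 µM regorafenib with autogramin-2 called 1 of 9 genes against 1.66% of all genes. This was Tgfb2, at 2869, 2294, 3606 and 3979 CP20M, 2.70-fold over vehicle with no overlap (log2 fold change 1.43, SE 0.23, limma adjusted p = 0.00345). Without line M3 or M1(2) the call was lost (limma adjusted p = 0.0921 and 0.119). Tgfb3 was higher in 4 of 4 lines (1.05, SE 0.44, limma adjusted p = 0.229) and was called once lines were blocked (limma adjusted p = 3.71e-06, 2 of 9 genes against 6.99% of all genes), and Tgfbr1 stood at 0.36 (SE 0.15, limma adjusted p = 0.220).

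The direct comparison of the combination with 4 µM regorafenib alone asked whether autogramin-2 altered these changes. None of the 9 genes was called, where 0.00906% of all genes were, nor once lines were blocked, where 1.43% were, and edgeR called none. For Tgfb2 the 95% interval of the difference was −0.57 to 0.41 on the log2 scale (estimate −0.08, limma adjusted p = 1.00), and for Tgfb3 −0.83 to 1.04 (0.11, limma adjusted p = 1.00). Tgfbr2 was the 1 gene with an unadjusted p under 0.05 (−0.21, SE 0.09, limma adjusted p = 0.870). It was lower in 4 of 4 lines, as were Tgfb1, Skil and Tgfbi, and 8 of the 9 estimates were below 0. The comparisons with the combination share libraries with those of regorafenib alone, and their values are side by side for that reason.

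**Figure D5:**
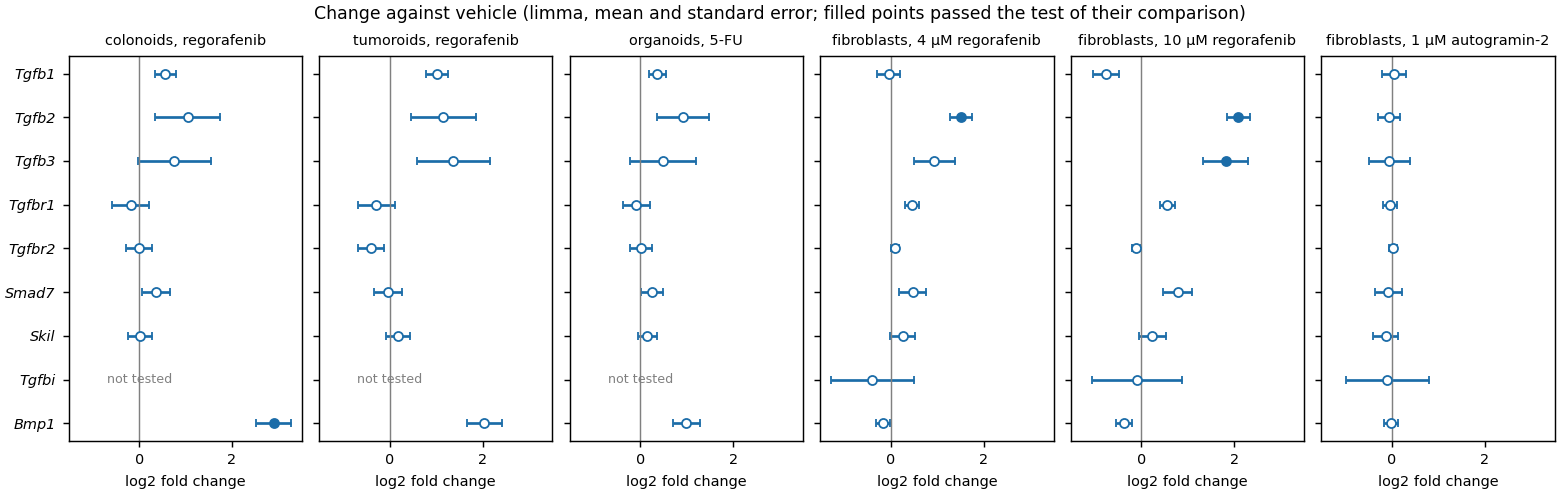
Log2 fold change against vehicle (limma, mean ± standard error) for the 9 genes in 6 comparisons, filled where a gene was called. Bmp1 is to the right in organoids (2.89 in colonoids, 2.04 in tumoroids) and not in fibroblasts, Tgfb2 is filled at both doses in fibroblasts (1.52 and 2.09), and autogramin-2 leaves all 9 near 0.

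At 4 µM, the dose that organoids and fibroblasts had in common, the line by line changes ran as follows. Bmp1 was higher in 6 of 6 organoid lines, by 1.34 to 2.63 on the log2 scale, and in 1 of 4 fibroblast lines, where the range was −0.32 to 0.06. Tgfb1 was higher in 6 of 6 organoid lines (0.51 to 1.33) and in 1 of 4 fibroblast lines (−0.27 to 0.40). Tgfb2 was higher in 3 of the 5 organoid lines with a read of it in both libraries (−0.16 to 2.33, from vehicle levels of 5 to 34 CP20M), line M41 having none at 4 µM, and in 4 of 4 fibroblast lines (1.38 to 1.67). Tgfb3 was higher in the 5 of 5 organoid lines with reads of it (0.83 to 1.21) and in 4 of 4 fibroblast lines (0.60 to 1.55). Treatment lasted 6 days in organoids and 7 in fibroblasts and the tables were made separately, so no test was made across them.

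Other genes of the pathway were read from 7 lists holding 59 genes, in the fit without the line as a block. In organoids under regorafenib 38 were tested, 7 of them were called higher and none lower, where 4.97% of all genes were called, with a median log2 fold change of 0.48 against −0.10 over all genes. Of these, 2 belong to latency and activation, Thbs1 and Ltbp1. Thbs1, thrombospondin, which can release latent ligand, was at 1004 ± 277 CP20M in vehicle in colonoids (SD, n = 3). There it was 4096 ± 2717 at 4 µM and 12700 ± 8422 at 8 µM. In tumoroids Thbs1 was 538 ± 117 CP20M in vehicle, 6833 ± 171 at 4 µM and 4900 ± 2685 at 8 µM. Its log2 fold change over all organoids was 2.98 (SE 0.32, limma adjusted p = 1.78e-05). Ltbp1, a latent TGF-β binding protein, was at 24 to 173 CP20M in vehicle, under the filter, and entered the test only through treated libraries. Its log2 fold change of 2.32 (SE 0.36) is therefore given as a size only, and its call, counted among the 7, decides nothing. The median of 0.48 counts it as well, so no shift of the lists is read from that median. Targets that rose included Fn1, fibronectin (4.54, SE 0.43, limma adjusted p = 8.65e-06), and Ctgf, a matricellular protein (1.37, SE 0.22, limma adjusted p = 4.13e-04). Fn1 went from 1722 ± 967 CP20M in vehicle to 83201 ± 65392 at 4 µM and 70311 ± 49620 at 8 µM in tumoroids (SD, n = 3). In colonoids it went from 8382 ± 4706 to 84170 ± 24571 and 147496 ± 87442. All 12 regorafenib libraries lay above all 6 vehicle libraries for Fn1 and Thbs1. Acvr1, a type I receptor for bone morphogenetic proteins and activin, also rose (1.01, SE 0.16, limma adjusted p = 3.01e-04). The 5 Smads and the 3 activin and inhibin genes tested gave no call, and none of the 4 tolloid family genes, relatives and cofactors of Bmp1, was expressed highly enough to be tested.

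Within a genotype, Ctgf was called in colonoids (1.96, SE 0.31, limma adjusted p = 9.15e-04), and 2 of 38 were called in tumoroids, against 0.203% of all genes (Fn1, 5.31, SE 0.61, limma adjusted p = 3.53e-04, and Thbs1, 3.31, SE 0.45, limma adjusted p = 9.86e-04). None passed the test of the difference between genotypes. At 8 against 4 µM 1 of 38 was called, against 0.451% of all genes, and Junb, an AP-1 factor, fell (−1.11, SE 0.21, limma adjusted p = 0.0349). Under 5-FU, 4 of 39 tested were called, against 2.35% of all genes, all higher: Thbs1 (2.30, SE 0.38, limma adjusted p = 0.00350), Fn1 (2.11, SE 0.56, limma adjusted p = 0.0441), the activin subunit gene Inhba (1.79, SE 0.48, limma adjusted p = 0.0454) and Acvr1 (0.71, SE 0.18, limma adjusted p = 0.0426).

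In fibroblasts 53 of the 59 were tested. At 4 µM regorafenib 2 were called higher, against 1.02% of all genes called: Ltbp2, a matrix protein of the latent TGF-β binding protein family (1.66, SE 0.30, limma adjusted p = 0.00860), and Cdkn2b, a cell cycle inhibitor induced by the pathway (0.64, SE 0.15, limma adjusted p = 0.0448). Ltbp2 went from 873 ± 313 CP20M in vehicle to 2766 ± 876 at 4 µM (SD, n = 4) and 3234 ± 883 at 10 µM (SD, n = 3). At 10 µM 7 were called higher and 2 lower, against 7.33% of all genes called. The higher ones with the largest change were Postn, periostin, a matrix protein (2.18, SE 0.71, limma adjusted p = 0.0486), Ltbp2 (1.90, SE 0.33, limma adjusted p = 0.00132), the inhibitory Smad gene Smad6 (1.55, SE 0.40, limma adjusted p = 0.0169) and Gdf15, a stress-induced cytokine (1.37, SE 0.44, limma adjusted p = 0.0474). The lower ones were Timp1, an inhibitor of metalloproteinases (−1.87, SE 0.35, limma adjusted p = 0.00243), and the co-receptor gene Tgfbr3 (−1.57, SE 0.30, limma adjusted p = 0.00251). Ctgf, called in organoids, was at 24164 ± 8578 CP20M in vehicle-treated fibroblasts (SD, n = 4) and was among those called at 10 µM (1.35, SE 0.38, limma adjusted p = 0.0255). The combination called Ltbp2 alone, 1 of 53 against 1.66% of all genes (1.22, SE 0.30, limma adjusted p = 0.0394). No gene of the 59 was called between 10 and 4 µM, under autogramin-2 alone or when it was added to regorafenib. These counts are without the line as a block, and the fold changes at 10 µM compare unlike sets of lines, since M11 has no library there. With it, 6.02% of all genes were called between 10 and 4 µM and 1.43% when autogramin-2 was added, and values of the 59 in that fit are not given.

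For each gene, the nearest profiles were found as those with the smallest root mean square difference of log2(CP20M + 20) after centring. Over the 24 organoid libraries Bmp1 was closest to Itga5, an integrin subunit that binds fibronectin (difference 0.40, r = 0.94), and then to Rps6ka2 and Tubb2a. Tgfb1 in organoids had Smpd2, Klc1 and Gm44085 nearest (0.25 to 0.28). Over the 19 fibroblast libraries Tgfb3 was closest to its overlapping transcripts AC134328.1 (0.08, r = 1.00) and Gm37804 (0.11), and then to Lmod1, a muscle leiomodin (0.26, r = 0.96). Tgfb2 was closest to its own overlapping transcript Gm29491 (0.20, r = 0.98), and then to Adamts2, a procollagen protease (0.25), and Fjx1 (0.27). Gm29491 was at 36 to 65 CP20M in vehicle and 180 to 243 at 4 µM, and passed the filter only through libraries with regorafenib. Tgfbi had Tenm3, Dpysl4 and Epha5 nearest, at 0.51 to 0.53. These likenesses describe libraries that share lines and treatments, and carry no test.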

How the data were processed

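RNA-seq of 24 mouse colon organoid and 19 fibroblast libraries was deposited as one table per experiment, normalised separately. The deposited values are a scaled signal (CP20M). The authors trimmed reads with Trimmomatic 0.36, aligned them to GRCm38 with STAR 2.5.3a, counted them per gene with HTSeq 0.9.1 and scaled each library to 20000000 reads on genes (tools per the submitters' processing notes). The figure legends of the study describe CP20M as divided by transcript length, but within a library all genes share 1 step, so no such division was made. Values were divided by that step and rounded to whole reads. The strand setting of the counting is not given in the sources used here.

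Groups came from the labels. Log2(CP20M + 20) was fitted with limma 3.58.1 (R 4.3.3, 1 coefficient per group, eBayes with a mean trend) for genes with at least 200 CP20M in 2 or more libraries of the fit, and p-values were adjusted by Benjamini-Hochberg over all of them. The study itself used edgeR's quasi-likelihood test, which was run with edgeR 4.0.16 on the recovered reads as an alternative. Other alternatives were a pseudocount of 2, no filter, TMM scaling, a line block and leaving out each line. The step was tested on simulated data. A floor of 3 reads was used for a count of 0, and floors cover counting error only. No pair of libraries within a group agreed within sampling noise.

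The same mouse line received every treatment, so lines pair the libraries. Deviations from group means correlated at a mean r of 0.43 within a line against −0.21 between lines in 18 organoid libraries, 0.50 against −0.25 in all 24, and 0.72 against −0.23 in fibroblasts.

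The 9 genes and the gene lists were chosen with earlier results of these data known. The rule named all 9 in every comparison, and the text does so for regorafenib against vehicle in all organoids and in fibroblasts. Elsewhere the members given singly were chosen after their values were seen, and the others are given by counts or a range. Of each list it took at most the 6 called genes with the largest change, with Ctgf at 10 µM in fibroblasts named beside its organoid value. One gene of the lists counts in their totals and is not reported here. Gene positions are from GENCODE M21, and sequences from RefSeq.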

Additional observations from a re-analysis of the deposited data

Results flagged for a closer look

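Tgfbi in fibroblast line M11 lay far from the other lines in 3 groups. It was 1065 CP20M in vehicle, where the next line read 151, 448 in 4 µM regorafenib, where the next read 94, and 1065 in 1 µM autogramin-2, where the next read 124. The gap to the nearest line made up 0.898, 0.905 and 0.914 of the range of these groups, above Dixon's 95% critical value for 4 samples. In all 36 sets of 4 values were tested in this way, 1 per gene and fibroblast group of 4, and chance gives about 1 in 20. The 3 values belong to 1 line and are not independent.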

How the results depend on the processing

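Of 586 values of single genes under an alternative, 552 kept their direction and side of the threshold, 21 passed only there, 10 lost the call and 3 changed sign. With the line as a replicate block, called members became 2 for regorafenib in organoids, 1 in tumoroids and 1 for 5-FU. In fibroblasts the replicate block gave 2 at 4 µM regorafenib, 4 at 10 µM, 3 for 10 against 4 µM and 2 for the combination, and it changed the number of members called in no other comparison. Under it Tgfbi at 10 µM turned to 0.58. Leaving out the shallowest library as well as blocking, a setting chosen after seeing the data, gave 3 in organoids, 3 in tumoroids and 1 for 5-FU. Over all genes that setting called 829 higher and 599 lower of 11274 in organoids and 285 and 118 in tumoroids. For 5-FU it called 584 and 226 of 11526. For 5-FU, leaving out that library alone gave 1 called member, beside 341 genes higher and 152 lower of 11526. Fitting only the 12 vehicle and 5-FU libraries also gave 1, beside 143 and 77 of 11172. Leaving out each line in turn gave 0 to 1 called members in colonoids, 0 to 2 at 4 µM in fibroblasts, 1 to 2 at 10 µM and 0 to 1 for the combination, and moved Tgfb1 at 4 µM in fibroblasts from −0.20 to 0.03. With fewer libraries the error is estimated on fewer degrees of freedom. Counts over all genes were less stable, and 97 of 150 moved by more than 1.5 times. In organoids under regorafenib, 563 genes were called, 155 to 642 without a line and 397 to 1428 otherwise. These counts were 165, 1 to 65 and 90 to 750 in colonoids, 23, 0 to 98 and 5 to 403 in tumoroids, 16, 3 to 49 and 3 to 84 between genotypes, 51, 0 to 35 and 5 to 295 between doses, and 272, 26 to 254 and 139 to 810 for 5-FU. In fibroblasts they were 113, 28 to 317 and 110 to 796 at 4 µM, 809, 358 to 1118 and 816 to 1519 at 10 µM, 16, 0 to 45 and 16 to 664 between doses, 183, 32 to 359 and 143 to 771 for the combination, and 1, 0 and 0 to 158 for autogramin-2 added to regorafenib. Depth limits Tgfb2 and Tgfb3 in colonoids, where the shallowest library had no read of either.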

Other observations

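Of the 7 epithelial markers, Cdx2, an intestinal identity factor, fell in organoids under regorafenib (log2 fold change −1.89, SE 0.29, limma adjusted p = 2.92e-04) and was lower in 6 of 6 lines. In that comparison, fitted without the line as a block as for all markers here, 4.97% of all genes were called. The other 6 were not called (−1.20 to 0.07), and the list summed to 72112 to 149262 CP20M in vehicle, 85360 to 170468 at 4 µM, where it was above vehicle in 5 of 6 lines, and 65882 to 140003 at 8 µM, where it was below vehicle in 5 of 6 lines. Cd68, a lysosomal glycoprotein also used as a macrophage marker, was higher at 8 than at 4 µM in 6 of 6 organoid lines (2.47, SE 0.49, limma adjusted p = 0.0391). Between these doses 0.451% of all genes were called. In those 12 libraries 3 to 6 of the 8 macrophage markers were at 0, C1qb in all of them, and Csf1r, the only other one tested, was not called (0.08, SE 0.13, limma adjusted p = 0.777).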
